A study of Mus musculus with 20 samples.

Results

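The genes described here encode the 4 opioid peptide precursors (Penk, Pdyn, Pomc and Pnoc) and the 4 opioid receptors (Oprm1, Oprk1, Oprd1 and Oprl1). They were chosen by symbol, not by value, and all 8 were present among the 19269 genes of the deposited count table, which held 20 RNA sequencing libraries of the mouse preoptic area.

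Opioid peptides are cut from larger precursor proteins by prohormone convertases at pairs of basic residues, stored in dense-core vesicles and released from neurons. Penk gives the enkephalins, Pdyn the dynorphins and neoendorphins, Pomc β-endorphin together with ACTH and the melanocortins, and Pnoc nociceptin. Their receptors (mu, Oprm1; kappa, Oprk1; delta, Oprd1; nociceptin, Oprl1) couple to inhibitory G proteins that lower cyclic AMP, open inward-rectifier potassium channels and close calcium channels. In the hypothalamus, dynorphin and β-endorphin are best known for restraining the release of gonadotropin-releasing hormone (GnRH).

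All libraries were made from preoptic punches of female mice, pooled from 3 to 4 animals, by polyA-primed low-input amplification. The assay was translating ribosome affinity purification: an immunoprecipitate (IP) against the GFP-tagged ribosomal protein L10a, with the depleted supernatant kept as the remaining tissue RNA. The crossed mice carried GnRH-Cre and a floxed-stop L10a-GFP allele, which places the tag in GnRH neurons. An adult GFP-positive pool of this cross gave 1 IP and 1 supernatant. Of the negative-control pools, which had no tagged ribosomes, the 2 adult ones carried GnRH-Cre only, day 21 pools 1 and 2 were wild type and day 21 pool 3 carried the floxed L10a-GFP allele only, so age and genotype changed together among them. Each of these 5 pools has an IP and a supernatant of the same number by the sample titles; the labels do not state that such libraries came from the same mice. The other libraries were supernatants of 4 GFP-positive pools of the same cross from an earlier series, 2 adult (pools 3 and 4) and 2 from day 21 (pools 1 and 2), each sequenced in a second and in a first set; these are called prior pools. Adult mice were 70 to 150 days old and in diestrus. The title of the series names prenatal androgenization, but the labels used here give no prenatal treatment for any pool, so whether the prior pools included treated mice is not known from them.

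Libraries held 27.7 to 50.5 M counts, and a floor of 3 counts corresponded to 0.0588 to 0.109 counts per M (CPM). Levels below are CPM after trimmed-mean scaling over the 20 libraries. As a check of the labels, the GFP-positive IP held 1457 CPM of Gnrh1, and the IP libraries of the negative-control pools held 7.85 to 33.5 CPM. Markers of the preoptic area were present: all 10 of the list, such as Gal at 74.5 ± 24.5 CPM in adult and 57.5 ± 28.8 CPM in day 21 supernatants, had counts. The punches also held RNA of markers of striatal projection neurons, which are rich in Penk and Pdyn. Ppp1r1b, the DARPP-32 gene, averaged 704 ± 95.7 CPM in adult and 645 ± 210 CPM in day 21 supernatants (SD, n = 5 each). In bulk tissue, fewer cells of a type and less RNA per cell cannot be told apart.

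The 4 precursors share the short peptide core through which they act, and the sequences below show it in the mouse transcripts (GENCODE M21, build mm10). The capitals are the 15 bases that encode the core, and the 6 bases on each side are in lower case. The longest coding sequence of Penk held 7 such cores, 6 ending in methionine (the Met-enkephalin sequence) and 1 in leucine (Leu-enkephalin). Of these, Penk copies 4 and 7, both methionine cores, are followed by codons for Arg-Ser and Arg-Phe rather than for a pair of basic residues. Pdyn held 3 leucine cores, Pomc 1 methionine core at the start of β-endorphin, and Pnoc 1 variant core at the start of nociceptin. In every one of these 12 cores the codons just before the capitals encode a pair of basic residues, the cutting site of the convertases. Representatives of each type are shown.
Penk copy 1: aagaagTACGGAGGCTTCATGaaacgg
Penk copy 6: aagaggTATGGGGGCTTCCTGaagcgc
Pdyn copy 1: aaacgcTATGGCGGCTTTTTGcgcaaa
Pdyn copy 2: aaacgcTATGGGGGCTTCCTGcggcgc
Pdyn copy 3: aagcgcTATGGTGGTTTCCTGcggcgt
Pomc copy 1: aagcgtTACGGTGGCTTCATGacctcc
Pnoc copy 1: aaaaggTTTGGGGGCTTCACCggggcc
The core of Penk copy 6, the Leu-enkephalin of proenkephalin, and that of Pdyn copy 2, at the start of dynorphin A, had 0 differing bases. The core of Pomc differed from Penk copy 1 at 1 of 15 bases, and that of Pnoc differed from Penk copy 1 at 5. Penk copy 1 lies at chr4:4134328-4134354 and copy 6 at chr4:4133935-4133961, both on the minus strand. The Pdyn copies lie at chr2:129688232-129688258, chr2:129688124-129688150 and chr2:129688067-129688093 (minus strand), the Pomc core at chr12:3960367-3960393 (plus strand) and the Pnoc core at chr14:65404872-65404898 (minus strand). All are in coding exons.

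The genes themselves lie apart from each other in mm10, Penk at chr4:4133531-4138819 and Oprd1 at chr4:132110726-132144486 on the same chromosome, and Pdyn at chr2:129686565-129699844 and Oprl1 at chr2:181715016-181720985 on another. Pomc lies at chr12:3954951-3960642, Pnoc at chr14:65400673-65425472, Oprm1 at chr10:6758506-7038198 and Oprk1 at chr1:5588466-5606131. The longest coding transcripts ran from 1043 nt (Pomc) to 4675 nt (Oprk1). Of the annotated exon bases of Penk, 14.26% were shared with A830012C17Rik on the opposite strand, and of those of Oprm1 1.194% with Ipcef1; no strand setting of the counting was given, so such reads could not be told apart.

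Penk was by far the most abundant of the 8 transcripts per length, and Oprm1 the least. In the adult supernatants Penk averaged 260.2 ± 15.1 CPM per kb of its longest transcript (SD, n = 5). Oprl1 followed at 18.4 ± 3.88 CPM per kb, so the nociceptin receptor was the most abundant receptor, and Pnoc, which encodes its ligand precursor, came next at 13.2 ± 1.90. The values of Oprl1 and Pnoc overlapped between pools. Pdyn (5.65 ± 0.828 CPM per kb) and Pomc (5.37 ± 0.797) also overlapped each other, and lay below every Pnoc value and above every Oprk1 value. The kappa receptor gene Oprk1 stood at 2.73 ± 0.313, above the overlapping Oprd1 (0.869 ± 0.295) and Oprm1 (0.517 ± 0.251). In the day 21 supernatants Penk was again highest (160.2 ± 37.7 CPM per kb), followed by Oprl1 (16.3 ± 4.65), Pnoc (11.3 ± 2.82), Pomc (8.63 ± 2.97), Pdyn (3.18 ± 0.942), Oprk1 (2.27 ± 0.805), Oprd1 (1.03 ± 0.490) and Oprm1 (0.507 ± 0.299). There the neighbours from Oprl1 to Pomc overlapped, as did those from Pdyn to Oprm1. Ranks with the median length of the coding transcripts were the same in these groups.

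**Figure D1:**
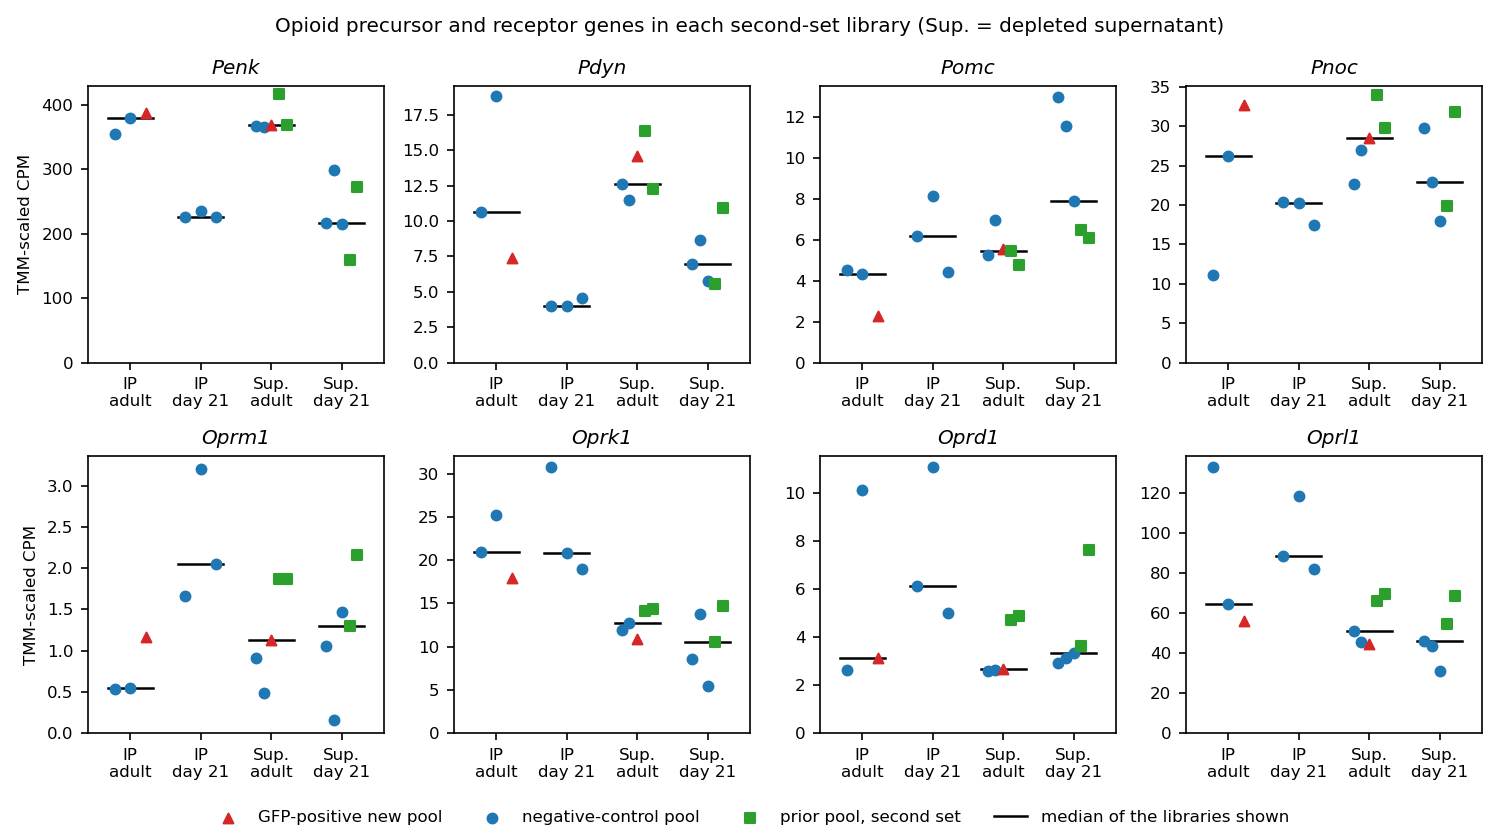
TMM-scaled CPM (y axis, from 0, a scale for each gene) of the 8 genes in the IP and second-set supernatant libraries, adult left of day 21, with 1 point per library, symbols for the kind of pool and a line at the median of the libraries drawn. Penk in the adult supernatants lies between 365.3 and 416 CPM, above all day 21 supernatants (159 to 298 CPM), and Oprl1 and Oprk1 lie higher in the negative-control IP libraries than in the negative-control supernatants.

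The first comparison set 5 adult against 5 day 21 supernatants, 1 second-set library per pool, with the origin of the pool (new or prior) as a term. Penk and Pdyn RNA were called higher and Pomc RNA lower in the adult supernatants, while Pnoc and the 4 receptors did not pass the test. Penk and Pdyn were each called in 16 of 18 alternative fits, and Pomc in 7 of 18. Age and genotype changed together in the new pools, so their parts cannot be told apart there. Within the prior pools alone, GFP-positive at both ages, none of these genes passed. Penk stood 1.62-fold higher, Pdyn 1.78-fold higher and Pomc 1.56-fold lower in adults. Of the 8 genes, 2 were called higher and 1 lower, and their median log2 fold change was 0.20. Of the 15938 genes tested 9.42% were called (4.2% higher and 5.22% lower), with a median of 0.01. The test was edgeR's quasi-likelihood test on the counts, with p-values adjusted over all genes tested and a threshold of 0.05, and SE is the standard error of a log2 fold change.

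Penk read 368 CPM in the GFP-positive pool, 367 and 365.3 in negative-control pools 1 and 2, and 416 and 369 in prior pools 3 and 4 of the adults. In the day 21 pools it read 216, 298 and 214.6 CPM in negative-control pools 1 to 3, and 159 and 273 in prior pools 1 and 2. Every adult value lay above every day 21 value, which was the case in either direction for 6.14% of genes, and the day 21 pools spread more widely (SD 54.6 CPM) than the adult ones (SD 21.9 CPM). The change was log2 0.70 (SE 0.13, 95% interval 0.41 to 0.99, adjusted p = 0.00629). Within the new pools it was 0.61 (adjusted p = 0.0346), and within the prior pools 0.86 (adjusted p = 0.282, 2 pools per age).

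Pdyn read 14.6 CPM in the GFP-positive pool, 12.7 and 11.5 in the negative-control pools and 16.4 and 12.3 in the prior pools of the adults. The day 21 values were 6.98, 8.63 and 5.77 CPM in the negative-control pools and 5.55 and 10.9 in the prior pools. These groups did not overlap either, and in both ages a prior pool was the highest. The change was log2 0.83 (SE 0.18, 95% interval 0.44 to 1.23, adjusted p = 0.0139), with 0.87 (adjusted p = 0.0461) within the new pools and 0.79 (adjusted p = 0.444) within the prior pools.

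Pomc read 5.56 CPM in the GFP-positive pool, 5.25 and 6.98 in the negative-control pools and 5.46 and 4.76 in the prior pools of the adults. In the day 21 pools the values were 12.98, 11.6 and 7.90 CPM in the negative-control pools, and 6.47 and 6.11 in the prior pools. Within the new and within the prior pools every adult value lay below every day 21 value, which in either direction was so for 24.5% and 43.4% of all genes, but across origins adult negative-control pool 2 exceeded both day 21 prior pools. Pomc fell by 0.64 on the log2 scale (SE 0.18, 95% interval -1.03 to -0.26, adjusted p = 0.0385). This call was lost in 7 of 10 fits that left out a pool, with adjusted p from 0.0577 to 0.118 (all but those without day 21 negative-control pool 3, adult prior pool 3 or day 21 prior pool 2), without the origin term (log2 -0.68, adjusted p = 0.103), and within the new pools (log2 -0.85, adjusted p = 0.0744) and the prior pools (-0.30, adjusted p = 0.677).

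With the negative-control pools only, 2 adult and 3 from day 21, none of the 3 passed: Penk changed by log2 0.60 (adjusted p = 0.0929), Pdyn by 0.77 (adjusted p = 0.13) and Pomc by -0.81 (adjusted p = 0.173). The calls of Penk and Pdyn were kept in all 10 fits that left out a pool, with adjusted p from 0.00348 to 0.0193 for Penk and from 0.00395 to 0.0433 for Pdyn. The test of whether the age change differed between new and prior pools passed for 1 of 16206 genes (0.00617%) and for none of the 8 (adjusted p = 0.999 for each; Pomc -0.56, SE 0.34; Penk -0.26, SE 0.27).

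The nociceptin pair showed smaller age differences that did not pass the test. Pnoc averaged 28.4 ± 4.09 CPM in adults and 24.4 ± 6.08 CPM at day 21 (log2 0.21, SE 0.15, 95% interval -0.11 to 0.53, adjusted p = 0.421). Oprl1 averaged 55.3 ± 11.6 CPM in adults and 48.8 ± 13.96 CPM at day 21 (log2 0.19, 95% interval -0.04 to 0.42, adjusted p = 0.303). For both, the prior pools included the highest value of each age.

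Among the classical receptors the kappa receptor gene Oprk1 averaged 12.8 ± 1.46 CPM in adults and 10.6 ± 3.76 CPM at day 21 (log2 0.28, 95% interval -0.15 to 0.71, adjusted p = 0.425). Oprd1, the delta receptor gene, averaged 3.49 ± 1.19 CPM in adults and 4.13 ± 1.97 CPM at day 21 (log2 -0.24, 95% interval -0.68 to 0.20, adjusted p = 0.509). For the mu receptor gene Oprm1 the values were 1.25 ± 0.607 CPM in adults and 1.23 ± 0.722 CPM at day 21, and the interval was wide (log2 -0.00, 95% interval -0.94 to 0.94, adjusted p = 0.999). For this gene, with 6 to 73 counts per library, the interval leaves room for an age difference of up to log2 0.94 in either direction.

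Markers of neurons that express these precursors were read beside the result. Of 8 striatal projection neuron markers 1 was called, Drd1a, the dopamine D1 receptor gene (log2 0.72, adjusted p = 0.0115), and the summed level of the list ranged from 1138 to 1496 CPM in adults and from 838 to 1526 CPM at day 21. Of 7 arcuate and ventromedial hypothalamus markers Cartpt was called higher (0.65, adjusted p = 0.0104), and their sums ranged from 105 to 116 CPM in adults and from 65.6 to 94.7 CPM at day 21. Most of that sum was Cartpt, at 81.3 CPM on average in adults and 51.8 CPM at day 21. The median log2 fold change of the list was 0.097. Npy, Tbx3 and Agrp averaged lower in adults, and Ghrh, Fezf1 and Nr5a1 averaged higher. Agrp, which marks arcuate neurons that neighbour the Pomc neurons, was low, at 0.450 ± 0.265 CPM in adults and 0.479 ± 0.0576 CPM at day 21. The magnocellular genes Avp and Oxt, whose neurons can hold dynorphin, summed to 202 to 557 CPM in adults and 38.4 to 312 CPM at day 21, with 0 of 2 called.

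Pituitary cells, the other main source of Pomc, left little RNA: the 6 pituitary markers in the table summed to 0.0987 to 1.99 CPM in adults and 0.214 to 0.531 CPM at day 21, and none passed the filter. Among the preoptic markers reported here Nts, the neurotensin gene (0.53, adjusted p = 0.0362), was called higher. Of 5 oligodendrocyte markers Mbp (-0.65) and Mobp (-1.54), both myelin genes, were called lower. Of 5 neuron markers Syt1 (0.32) was called higher and Stmn2 (-0.53) lower, and of 5 astrocyte markers Slc1a3 (0.41) was called higher. Of 8 fibroblast and 5 microglia markers 0 were called. The part of these cell types in the changes of Penk, Pdyn and Pomc was not tested.

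Other genes of opioid peptide handling were read from fixed lists. Of 7 genes of precursor processing 3 were called higher in adults and 0 lower: Scg5, which encodes the PCSK2 chaperone 7B2 (log2 0.52, adjusted p = 0.0249), Pcsk1n, which encodes proSAAS (0.39, adjusted p = 0.0375), and Cpe, the carboxypeptidase E gene (0.25, adjusted p = 0.0372). The convertase genes themselves did not pass, with Pcsk1 at 0.32 (adjusted p = 0.421) and Pcsk2 at 0.38 (adjusted p = 0.0641), and the median of the list was 0.32. Of 9 peptidase genes 2 were called higher, the endothelin-converting enzyme genes Ece1 (0.59, adjusted p = 0.0053) and Ece2 (0.62, adjusted p = 0.0103). Dpp3, a dipeptidyl peptidase gene known for cleaving enkephalins, was called lower (-0.59, adjusted p = 0.00111).

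Downstream of the receptors, 2 of 10 G protein subunit genes were called lower in adults, Gng3 (-0.50, adjusted p = 0.00362) and Gnb2 (-0.30, adjusted p = 0.0329). Of 10 effector genes, which encode potassium and calcium channels and adenylyl cyclases, 0 were called in the supernatant comparison, with a median of 0.13. Among 15 genes of receptor regulation (kinases, arrestins and regulators of G protein signalling) Rgs4 was called lower (-0.45, adjusted p = 0.00496) and none higher.

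The second comparison of age used the IP libraries of the negative-control pools, 2 adult and 3 from day 21. Penk read 355 and 380 CPM in the adult IP libraries, against 225.5, 235 and 225.7 CPM in the day 21 IP libraries. Pdyn read 10.7 and 18.8 CPM in the adult IP libraries, against 4.02, 3.97 and 4.54 CPM in the day 21 ones. Both genes did not overlap between the ages, nor did Oprm1 (0.528 and 0.540 CPM in adult, against 1.67, 3.20 and 2.05 CPM in day 21 IP libraries), where 24.2% of genes did not overlap.

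No gene of the 8 was called in that IP comparison, in which 0.727% of 16361 genes were (0.324% higher and 0.403% lower). Penk changed by log2 0.71 (SE 0.15, adjusted p = 0.0592), Pdyn by 1.84 (SE 0.39, adjusted p = 0.0608) and Oprm1 by -2.08 (SE 1.13, adjusted p = 0.371). The other 5 lay between -0.48 (Pomc) and 0.06 (Oprl1). With DESeq2, which called 1284 genes, Penk (adjusted p = 0.000715) and Pdyn (adjusted p = 0.000328) passed. The IP and supernatant libraries of the negative-control pools carry the same pool numbers, so these values may not come from a second set of animals.

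**Figure D2:**
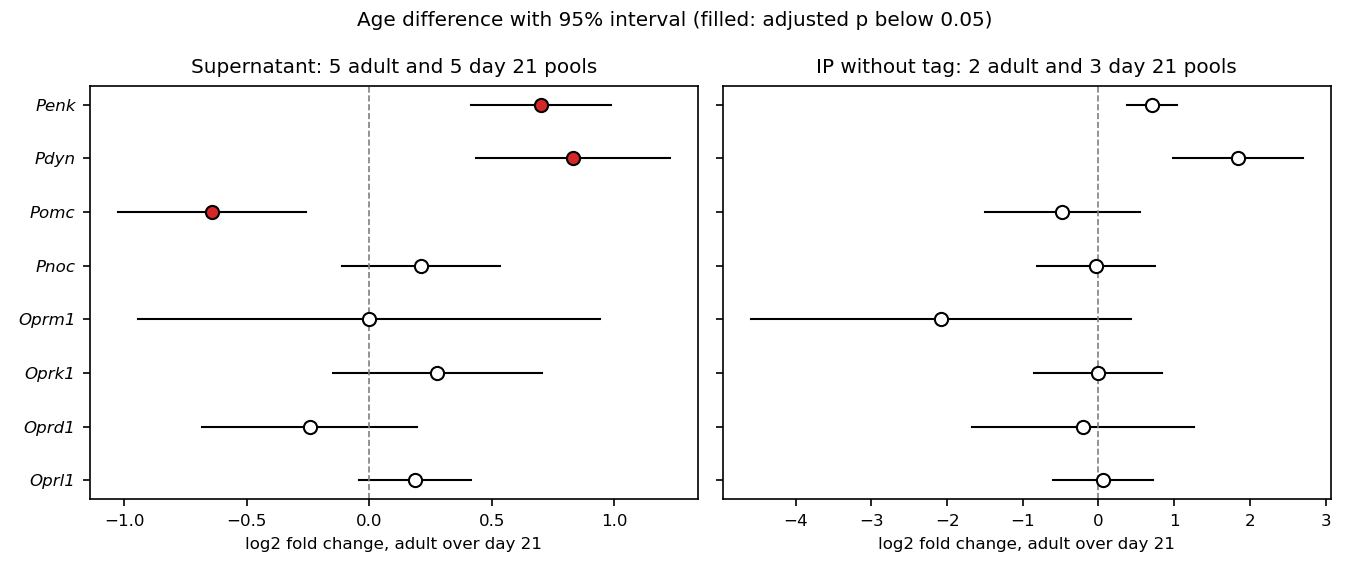
Log2 fold change of adult over day 21 (x axis, own scale in each panel) for each gene, with its 95% interval as a line, in the supernatants on the left and in the IP without tagged ribosomes on the right; filled points passed an adjusted p of 0.05. In the supernatants Penk (0.70) and Pdyn (0.83) lie above 0 and Pomc (-0.64) below, and in the IP no point is filled.

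The next question was what the pull-down recovers without tagged ribosomes, read as IP over supernatant in the negative-control pools (5 libraries each). A pair of receptor genes was called, Oprl1 at 2.17-fold and Oprk1 at 2.13-fold higher in the IP, and no precursor was called. Of the 8 genes 2 were called higher and 0 lower. Among all 16361 genes tested 32.1% were called (15.8% higher and 16.2% lower), so 2 of 8 lies near that share.

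Oprl1 read 133 and 64.5 CPM in the adult IP libraries and 88.7, 118 and 82.3 CPM in the day 21 IP libraries, against 51.1 and 45.6 CPM in the adult supernatants and 46.1, 43.6 and 31.1 CPM in the day 21 supernatants. All IP values exceeded all supernatant values, which in either direction was so for 24% of genes. The change was log2 1.12 (SE 0.22, 95% interval 0.64 to 1.60, adjusted p = 0.00275). It was called within the day 21 pools (1.22, adjusted p = 0.00771), where 27.1% of genes were (13% higher and 14.1% lower). Within the adult pools, where 10.9% of genes were called (6.39% higher and 4.49% lower), Oprl1 stood at 1.02 (adjusted p = 0.0797). There it passed with DESeq2 (adjusted p = 0.0239). With 1 library left out the adult value ranged from 0.38 to 1.45, and it passed in 1 of 10 fits. That fit was without adult IP 2, which left 1 adult IP library.

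Oprk1 read 20.9 and 25.3 CPM in the adult IP libraries and 30.7, 20.8 and 18.9 CPM in the day 21 ones, against 11.9 and 12.7 CPM in the adult supernatants and 8.62, 13.8 and 5.46 CPM in the day 21 supernatants. Here too no IP library overlapped a supernatant, and the lowest level was that of day 21 supernatant 3. The change was log2 1.09 (SE 0.27, 95% interval 0.48 to 1.70, adjusted p = 0.0116). The call was lost without adult supernatant 1 (adjusted p = 0.0647) or adult supernatant 2 (adjusted p = 0.0532). Within the day 21 pools it was 1.30 (adjusted p = 0.0194), and within the adult pools 0.89 (adjusted p = 0.217). The day 21 call was lost without supernatant 1, supernatant 3 or IP 1 of that age (adjusted p = 0.0808, 0.0604 and 0.0556).

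Oprd1 read 2.64 and 10.1 CPM in the adult IP libraries and 6.12, 11.1 and 5.02 CPM in the day 21 ones, against 2.59 and 2.64 CPM in the adult supernatants and 2.91, 3.14 and 3.33 CPM in the day 21 ones. The supernatants were close to each other, while the IP libraries spread widely and adult IP 1 lay within the supernatant range. The change of log2 1.23 (SE 0.48) did not pass the test (adjusted p = 0.0733). It passed in 3 of 15 alternatives. These were DESeq2 (adjusted p = 0.0265), the fit without day 21 IP 3 (adjusted p = 0.0485) and that without adult IP 1. The last, with 1 adult IP library left, gave log2 1.56. With 1 library left out the change ranged from log2 0.61 to 1.56. Oprm1 gave log2 0.46 (SE 0.74, adjusted p = 0.702) from low counts, with values for libraries of the same number between -0.78 and 4.31; the highest was that of day 21 pool 2, whose supernatant read 0.161 CPM.

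Penk was recovered about in proportion to its share of the supernatant, at 284 ± 76.5 CPM in the IP and 292 ± 75.4 CPM in the supernatant (SD, n = 5 each; log2 -0.07, SE 0.11, 95% interval -0.31 to 0.16, adjusted p = 0.672). Pdyn averaged 8.40 ± 6.47 CPM in the IP and 9.11 ± 2.93 CPM in the supernatant (log2 -0.27, adjusted p = 0.516). For Pnoc the averages were 19.1 ± 5.51 CPM in the IP and 24.1 ± 4.51 CPM in the supernatant (log2 -0.38, adjusted p = 0.296). With 1 library left out the value of Pnoc ranged from -0.75 to -0.14, and it passed in 1 of 10 fits. That fit was without adult IP 2 (-0.75), which left 1 adult IP library. Pomc averaged 5.52 ± 1.65 CPM in the IP and 8.93 ± 3.23 CPM in the supernatant (log2 -0.66, 95% interval -1.37 to 0.06, adjusted p = 0.155). Its IP value lay below the supernatant of the same number in 5 of 5 pools, a pairing that the labels do not state. The share of all genes with 1 direction in every pool was not computed. The test of whether the IP ratio differed between ages passed for 0 of 16361 genes with edgeR (1068 at an unadjusted p under 0.05, and 118 with DESeq2); for Pdyn, whose ratio was log2 0.27 in adults and -0.81 at day 21, it gave adjusted p = 0.789.

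The IP ratio ran with transcript length across genes (rank correlation 0.47 over 16141 genes, which are not independent replicates), so each gene was set beside those of like length, in 10 bins with nearly equal numbers of genes. For Oprl1, whose longest transcript has 2999 nt, the median of its bin was log2 -0.06 and the upper quartile 0.36, against its own 1.12, and 9.74% of that bin was called higher. For Oprk1 (4675 nt) the median was 0.24 and the upper quartile 0.69, against its own 1.09, with 22.4% called higher. Oprd1 (4021 nt) stood at 1.23, in a bin whose median was 0.12 and upper quartile 0.55. The shortest gene, Pomc (1043 nt), stood at -0.66, equal to the median of its bin to 2 decimals, and Penk (1449 nt) stood at -0.07 in a bin whose median was -0.40. Oprm1 (2420 nt, low counts) stood at 0.46, Pdyn (2386 nt) at -0.27 and Pnoc (2157 nt) at -0.38. These fell in the same bin, whose median was -0.19 and whose quartiles were -0.62 and 0.26. No test was made against the bins.

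**Figure D3:**
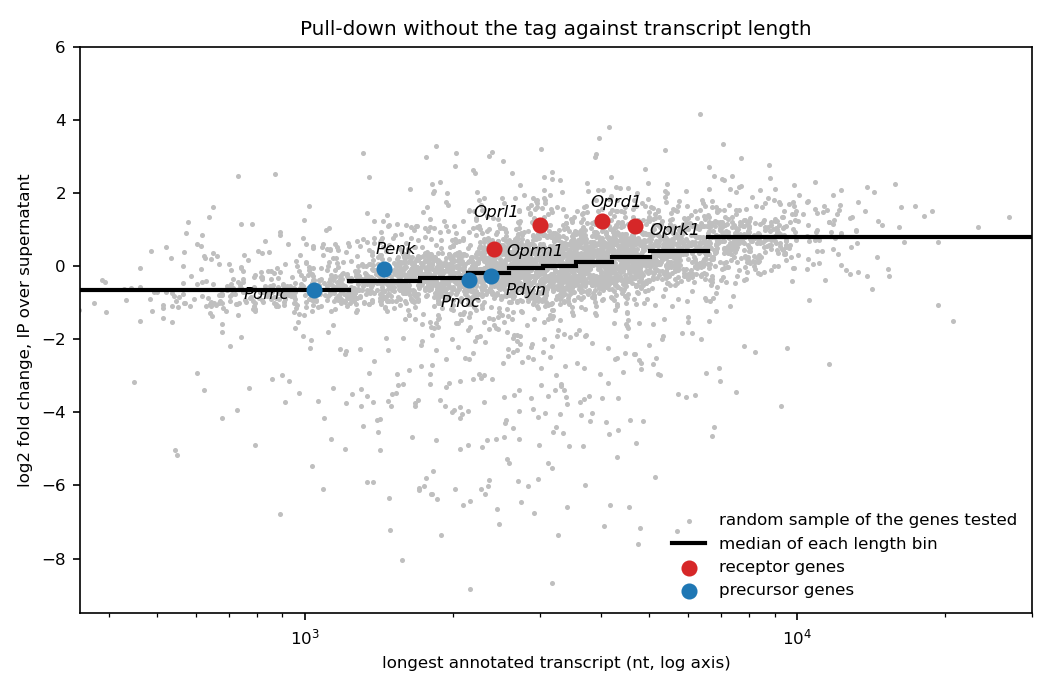
Log2 fold change of IP over supernatant without tagged ribosomes (y axis) against the longest annotated transcript in nt (x axis, log scale), with grey points for a random sample of the genes tested, black bars for the median of each of 10 bins of transcript length, red points for the receptor genes and blue points for the precursor genes. Oprl1, Oprk1, Oprd1, Oprm1 and Penk lie above the bars of their lengths, Pdyn and Pnoc lie below theirs, and Pomc lies on its bar at -0.66.

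Markers of cell types also differed between the untagged IP and the supernatant. The 5 neuron markers summed to 3005 to 3620 CPM in the IP, against 4031 to 4418 CPM in the supernatant, without overlap (24% of single genes did not overlap). Most of the sum was Snap25, at 1895 CPM on average in the IP and 2735 CPM in the supernatant. Stmn2 was also lower in the IP (518 against 762 CPM). Syt1 (413 against 270 CPM), Rbfox3 (296 against 240) and Elavl4 (188 against 171) averaged higher. The median log2 fold change of the list was 0.12. Among the 5 markers Syt1 (log2 0.58) was called higher, and Snap25 (-0.55) and Stmn2 (-0.55), which encode a synaptic fusion protein and a microtubule regulator, were called lower. The 7 arcuate and ventromedial markers summed to 47.5 to 92.7 CPM in the IP, against 65.6 to 106 CPM in the supernatant. Of these, Cartpt (-0.57) was called lower, as was Nr5a1, which had 0 counts in all 5 IP libraries. Drd1a (0.90), 1 of 8 striatal markers, and Aldh1l1 (0.91), 1 of 5 astrocyte markers, were called higher, as was the progesterone receptor gene Pgr (0.83) among the preoptic markers reported here. Aif1 (-1.10), 1 of 5 microglia markers, was called lower. Of 5 oligodendrocyte, 8 fibroblast and 2 magnocellular markers 0 were called. The part of these markers' cell types in the IP ratios of Oprl1 and Oprk1 was not tested.

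The lists of the pathway were read in the untagged IP too, where 15.8% of all genes tested were called higher and 16.2% lower. Of 10 effector genes 3 were called higher and 0 lower: Adcy1 (log2 2.21, adjusted p = 1.65e-05) and Adcy5 (1.27, adjusted p = 0.000375), both adenylyl cyclase genes, and Cacna1a, a P/Q-type calcium channel gene (1.61, adjusted p = 0.000875). The median of that list was 0.72, against -0.03 over all genes. In the bin of the longest transcripts the median of all genes was 0.79, with 53.7% called higher. The bin next to it had a median of 0.42, with 30.1% called higher. The lists were not matched for transcript length, and the part of length in their calls was not tested. Of 10 G protein genes 6 were called lower, led by Gng2 (-1.06) and Gng3 (-0.90), and 1 higher, Gnaz (0.56), with a median of -0.50. The processing genes gave 0 of 7 calls. Of 9 peptidase genes Lnpep (1.72) and Npepps (0.49) were called higher. Of 15 genes of receptor regulation Grk4 (0.81) was called higher, and Rgs10 (-0.79), Arrb2 (-0.69) and Rgs7 (-0.61) were called lower.

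The GFP-positive IP asked which of these transcripts the tagged ribosomes of GnRH neurons add. It had 1 library, so its spread was taken from the other IP libraries. Against the adult negative-control IP the test called 1 of 16586 genes (0.00603%), which was Gnrh1, and none of the 8; with DESeq2, 210 genes were called. Pnoc read 32.7 CPM in the GFP-positive IP, above all 5 negative-control IP libraries (11.1 to 26.3 CPM), and Pomc read 2.26 CPM, below all 5 (4.35 to 8.13 CPM). Oprl1 at 56.1 CPM (64.5 to 133 CPM in the negative-control IP) and Oprk1 at 17.9 CPM (18.9 to 30.7 CPM) also lay below all 5. Penk at 388 CPM lay just above them (225.5 to 380 CPM). Among 13530 tested genes with counts in every negative-control library, 36.7% lay outside this range (17.3% above and 19.5% below), so such positions were common. Of the other genes, Pdyn at 7.39 CPM, Oprm1 at 1.16 CPM and Oprd1 at 3.15 CPM lay within their ranges.

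Set against the GFP-positive supernatant, the GFP-positive IP had a Gnrh1 ratio of 53.4 (95% interval 49.7 to 57.5, exact binomial, counting error only). The ratio of Pnoc was 1.15 (1.05 to 1.25), against 0.487 to 0.972 in the negative-control pools, and that of Penk was 1.05 (1.03 to 1.08), against 0.788 to 1.05. Ratios below the range of those pools were seen for Pomc, at 0.406 (0.314 to 0.522) against 0.477 to 0.857, and for Oprl1, at 1.27 (1.18 to 1.36) against 1.41 to 2.72. Pdyn had a ratio of 0.507 (0.438 to 0.586) against 0.460 to 1.63, Oprk1 1.65 (1.44 to 1.89) against 1.51 to 3.57, Oprd1 1.19 (0.891 to 1.59) against 1.02 to 3.83 and Oprm1 1.03 (0.652 to 1.65) against 0.581 to 19.9. Over the same 13530 genes 35.8% of ratios lay outside the range of the negative-control pools. The series text leaves some doubt as to which adult supernatant is GFP-positive. With that supernatant and adult negative-control supernatant 1 exchanged, Oprk1 also lay below the range, at 1.504 against 1.51 to 3.57, and no other gene of the 8 changed its place. With 1 GFP-positive pool there is no replicate error for these ratios.

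Cell type markers were read in the same library. The 5 neuron markers summed to 4533 CPM in the GFP-positive IP, against 3005 to 3620 CPM in the negative-control IP. The 5 oligodendrocyte markers summed to 1816 CPM in the GFP-positive IP, against 2228 to 6550 CPM in the negative-control IP. Of single genes 36.7% lay outside the negative-control range. The sums of astrocyte (333 against 315 to 1155 CPM), fibroblast (131 against 129 to 456) and microglia markers (41.8 against 34.5 to 57.3) lay within it. Against the adult negative-control IP the median log2 fold change was 0.43 for neuron, -1.004 for oligodendrocyte, -0.99 for fibroblast, -0.43 for astrocyte and 0.38 for microglia markers, with 0 called in each list. Their part in the levels of the 8 genes was not tested.

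The last comparison asked how far the same RNA gave the same value when sequenced again. Of the 8 genes 2 were called higher in the second set and 0 lower, where 31.1% of 16117 genes were called (15% higher and 16.1% lower). Both are receptor genes: Oprm1 stood 2.52-fold higher and Oprk1 1.41-fold higher in the second set. The p-values refer to repeats of the same RNA, not to separate mice.

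Oprm1 had 69 counts in the second and 46 in the first set for adult pool 3, and 60 and 20 for adult pool 4. For day 21 pool 1 it had 51 counts in the second and 11 in the first set, and for day 21 pool 2 73 and 42. All 4 pools were higher in the second set, by log2 0.75 to 2.24 (fitted log2 1.34, SE 0.35, adjusted p = 0.00883). The fitted difference between repeats was thus larger than the fitted age difference of Oprm1 in the supernatants (log2 -0.00).

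Oprk1 read 14.1 CPM in the second and 12.8 in the first set for adult pool 3, and 14.4 and 6.64 for adult pool 4. For day 21 pool 1 it read 10.5 CPM in the second and 7.55 in the first set, and for day 21 pool 2 14.6 and 11.4. All 4 pools were again higher in the second set, most of all adult pool 4 (log2 1.11). The fitted change was log2 0.50 (SE 0.14, adjusted p = 0.0133), and without adult pool 4 it was 0.31 (adjusted p = 0.119 and 0.111 with either of its libraries left out).

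No precursor passed the test between sets. Penk changed by log2 -0.01 (SE 0.04, 95% interval -0.10 to 0.08, adjusted p = 0.903) and Pnoc by -0.03 (SE 0.08, adjusted p = 0.816). Pdyn (log2 -0.21, adjusted p = 0.16) and Pomc (-0.33, 95% interval -0.64 to -0.02, adjusted p = 0.0988) were lower in the second set in 4 of 4 pools without passing the test. Oprl1 changed by -0.09 (adjusted p = 0.352). Oprd1 had pool values from log2 -0.85 to 0.88 (fitted 0.24, adjusted p = 0.501), and passed when either library of day 21 pool 1 was left out (0.60, adjusted p = 0.0196, and 0.61, adjusted p = 0.0216). With the first-set libraries of the prior pools in place of the second-set ones, the age changes of Penk, Pdyn and Pomc kept their direction and their calls, Pomc with adjusted p = 0.0487.

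**Figure D4:**
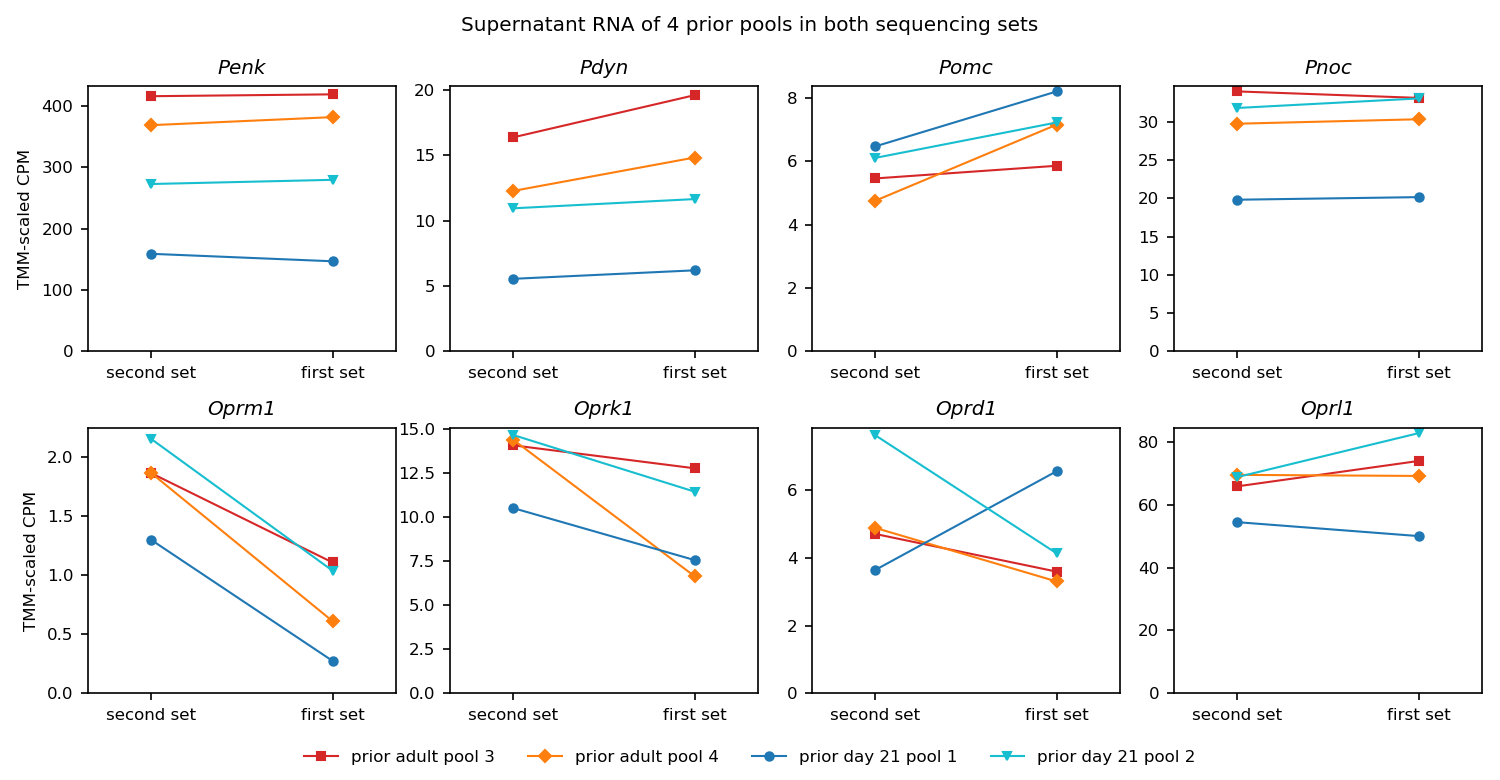
TMM-scaled CPM (y axis, from 0, a scale for each gene) of the 8 genes in the supernatant RNA of the 4 prior pools, second set left of first set, with a line joining the libraries of a pool. The lines of Penk and Pnoc are nearly flat, and those of Oprm1 and Oprk1 lie higher in the second set in 4 of 4 pools.

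Genes with the most similar pattern were taken from the 10 second-set supernatants, as a description only, since these pools share their age groups, origins and depth. Pdyn ran closest with Synpr, which encodes the synaptic vesicle protein synaptoporin (Pearson r 0.976 over 10 pools, among 11755 genes), and with Mcfd2 and Ddost. Penk ran closest with Pign (0.957), Cnih and Ormdl1. Pomc ran closest with Uqcrq (0.983) and Cox6b1 (0.981), both respiratory chain subunit genes, and with Myeov2.

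For Pnoc the closest were Ly6e (0.966), Rhbdd2 and Gal, the galanin gene (0.946). Oprl1 ran closest with Rnf128 (0.973), Pcsk1, the prohormone convertase gene (0.969), and Gprasp1, a receptor-sorting protein gene (0.969). The rarer receptors gave Syngr3 (0.959), Glmn and the cannabinoid receptor gene Cnr1 (0.95) for Oprd1, Arxes2 (0.930), Jag2 and Izumo4 for Oprk1, and Ighmbp2 (0.957), Ttc21b and Lrrc33 for Oprm1.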

How the data were processed

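The authors deposited raw read counts (whole numbers, not normalised) for each gene symbol in 20 libraries. The build was mm10, and the tools listed, per the submitters' processing notes, were HTSeq 0.6.1, TopHat2 2.0.13 with Bowtie2 2.2.1, DESeq2 1.14.1, Cuffdiff 2.1.1, Cufflinks and FastQC 0.11.3; what each did, the gene models and whether counting used strand are not given in the sources used here. A SMARTer v4 kit amplified the polyA RNA, per the labels' protocols. PCR duplicates were not marked by molecular identifiers, so intervals from counts cover counting error only.

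Groups followed the sample titles. In the series text the GFP-positive supernatant appears under 2 library numbers, of which 1 belongs to adult negative-control supernatant 1 by its title, and the descriptions numbered the adult negative-control supernatants differently from the titles.

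Differences in counts were assessed by edgeR's quasi-likelihood F-test (edgeR 4.0.16, R 4.3.3, TMM scaling, filterByExpr with a minimum count of 10, Benjamini-Hochberg adjustment over all genes tested, threshold 0.05). The first fit held the 10 negative-control libraries, and the next held 1 second-set supernatant of each of 10 pools with age and origin. A separate fit of the same supernatants added the product of age and origin. Another held the 8 prior-pool libraries with the pool as a block, and the last the 6 IP libraries. The procedure was tested on simulated data. All 8 members passed the filter on low counts in each fit. CPM were scaled over all 20 libraries, and levels per length used the longest coding transcript of GENCODE M21 (18961 of 19269 genes matched). Each pool was treated as a separate set of mice, and p-values refer to the spread between these pools. Alternatives were DESeq2 1.42.0, its size factors, no low-count filter, each library left out, the replicate number as a block, subsets of pools, first-set libraries, and the GFP-positive supernatant exchanged with adult negative-control supernatant 1. In every comparison the 8 genes were named. The 3 genes of most similar pattern, at a mean log2 CPM of at least 1, came from the second-set supernatants. Called list genes were named for age in the supernatants and for the untagged IP over both ages. Of the G protein genes called lower in that IP, only Gng2 and Gng3 were named. List calls for age in the IP, for the untagged IP within each age and between sets are not given. The members, lists and tests were chosen with earlier results of these data known. The result of a preoptic marker is not reported here.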

Additional observations from a re-analysis of the deposited data

Results flagged for a closer look

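Among the 32 combinations of a gene and a group of 5 libraries that were checked, 2 held a library that stood apart from the other 4 by more than Dixon's critical value of 0.71 for the gap over the range; chance flags about 1 in 20. Penk in the adult supernatants was highest in prior adult pool 3, at 416 CPM with the nearest pool at 369 CPM, a gap of 0.929 of the range. This pool had 419 CPM in the first sequencing set as well, and without it the age change of Penk kept its call. Oprd1 in the day 21 supernatants was highest in prior day 21 pool 2, at 7.61 CPM with the nearest pool at 3.64 CPM, a gap of 0.844 of the range. In the first set the same pool had 4.13 CPM, and day 21 prior pool 1 had 6.55 CPM.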

How the results depend on the processing

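Of 992 recomputed results of the 8 genes, 903 kept their direction and their side of the threshold; 24 lost and 11 gained a call, each named here or in the report, and 54 changed direction, of which none was a call before. Calls over all genes moved more. DESeq2 called 2257 genes for age in the supernatants, 1284 for age in the IP, 2855 for the untagged IP in adults, 118 for age by fraction, 9 for age by origin and 210 for the GFP-positive IP. Age in the supernatants gave 655 calls without the origin term, 481 in new, 256 in negative-control and 11 in prior pools only, and age by origin 2 without the low-count filter. With the replicate block, which pairs IP and supernatant by title number, the untagged IP gave 4970 calls (4266 at day 21, 2075 in adults, 0 for age by fraction), and of the 8 genes only Oprl1 in adults changed its call (0.93, adjusted p = 0.0478). The labels do not state this pairing: deviations of same-numbered libraries correlated at 0.0897 to 0.251, over 0.1 in 2 of 5 pools, although at day 21 each library correlated best with its own number. With the GFP-positive supernatant and adult negative-control supernatant 1 exchanged, the untagged IP gave 5211 calls (4304 at day 21, 1857 in adults, 0 for age by fraction), and no call or direction of the 8 changed. Without the replicate block the sets gave 1155 calls, and Oprm1 (log2 1.23, adjusted p = 0.113) and Oprk1 (0.47, adjusted p = 0.234) were lost. With 1 library left out, calls ranged from 3571 to 5725 for the untagged IP (2842 to 4856 at day 21, 285 to 2398 in adults), 0 to 67 for age by fraction, 0 to 458 for age in the IP, 723 to 1706 for age in the supernatants, 1 to 9 for age by origin, 3688 to 4851 for the sets and 0 to 1 for the GFP-positive IP.

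Directions changed for these uncalled log2 values, given as their range with 1 library left out. For the untagged IP Penk ranged from -0.23 to 0.026 at day 21, and in adults Penk from -0.053 to 0.022, Pdyn from -0.19 to 0.61, Pnoc from -1.18 to 0.047 and Oprm1 from -0.79 to 0.077. For age by fraction Penk ranged from -0.063 to 0.19, Pnoc from -0.85 to 0.37, Oprd1 from -1.20 to 0.71 (-0.15 with the replicate block) and Oprl1 from -0.84 to 0.23. For age in the IP Pnoc ranged from -0.77 to 0.45, Oprk1 from -0.14 to 0.23, Oprd1 from -1.46 to 0.45 and Oprl1 from -0.57 to 0.50. For age in the supernatants Oprm1 ranged from -0.26 to 0.31, with 0.017 without the origin term, 0.11 in prior pools only and 0.10 with first-set libraries. For age by origin Penk ranged from -0.69 to 0.069, Pdyn from -0.50 to 0.46, Pnoc from -0.52 to 0.15, Oprm1 from -0.70 to 0.41, Oprk1 from -0.089 to 0.58, Oprd1 from -0.63 to 0.42 (0.0011 without the low-count filter) and Oprl1 from -0.073 to 0.25. Between sets Penk ranged from -0.045 to 0.011, and in the GFP-positive IP Oprd1 from -1.66 to 0.30. The causes were not tested. Oprm1 had 6 to 73 counts per supernatant, and its interval for age reached log2 0.94 in both directions.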
